A study of Rattus norvegicus with 15 samples.

Results

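Homeobox and POU genes encode transcription factors whose expression marks position along the brain, from the telencephalon at the front through the diencephalon and midbrain to the hindbrain and spinal cord. The members described here were the RefSeq transcript records whose rat symbol begins with Hoxa, Hoxb, Hoxc or Hoxd, with Dlx, Irx, Lhx, Nkx, Otx, Pax or Pitx and a digit, as Six4 and its kin do, or with Pou, a digit and f, leaving out Lhx2 and Six3. The rule used names alone and found 90 records of 88 genes among 18278 records, of which 17339 had a symbol. In 2 cases a gene had 2 records.

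These families act in a nested way. Otx genes are needed for the forebrain and midbrain, and Hox genes are transcribed in the hindbrain and spinal cord in an order that follows their place in the cluster. Dlx genes and Lhx6 set up the inhibitory neurons that the ventral telencephalon sends to cortex and hippocampus, while Irx, Pitx, Pou4f and several Lhx and Pax genes are used in the diencephalon and midbrain. Adult neurons keep part of this code, so the same genes can be read in dissected adult tissue.

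The rats came from a study of vagus nerve stimulation (VNS), the electrical stimulation of the vagus nerve through an implanted device. The VNS rats were stimulated for 30 minutes on each of 4 days and the control rats carried a sham device. The rats that gave the hippocampal libraries, 3 control and 4 VNS, also performed a novelty preference task of 10 minutes on days 2 to 4, and another 8 libraries, 4 control and 4 VNS, came from cortex. Brains were taken right after the last stimulation. Strain, age, sex and any pooling were not given in the labels used here, and neither was the dissection of each hippocampus, so p-values measure the spread between these libraries. The hippocampal libraries were made from ribosome-depleted RNA and the cortex libraries from polyA-selected RNA.

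The RefSeq promoter table of build GRCr8 held 250 bases before to 50 after the start of 50 of the 88 genes, and 4 of these are printed because their genes lay at opposite ends of the pattern described next. Irx2 (chr1:32494881-32495180, minus strand) and Pax7 (chr5:157381072-157381371, minus strand) were read most in 1 control library in which Dlx1 (chr3:76763614-76763913, plus strand) and Lhx6 (chr3:39853374-39853673, minus strand) were nearly absent. Each runs 5′ to 3′ with CpG dinucleotides, the bases that can carry DNA methylation, in capitals.
Irx2: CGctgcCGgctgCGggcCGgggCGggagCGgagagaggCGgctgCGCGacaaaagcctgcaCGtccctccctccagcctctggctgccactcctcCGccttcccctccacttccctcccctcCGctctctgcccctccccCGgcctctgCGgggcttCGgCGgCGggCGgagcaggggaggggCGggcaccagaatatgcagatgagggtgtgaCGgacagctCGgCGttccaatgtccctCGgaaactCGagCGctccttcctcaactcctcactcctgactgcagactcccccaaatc
Pax7: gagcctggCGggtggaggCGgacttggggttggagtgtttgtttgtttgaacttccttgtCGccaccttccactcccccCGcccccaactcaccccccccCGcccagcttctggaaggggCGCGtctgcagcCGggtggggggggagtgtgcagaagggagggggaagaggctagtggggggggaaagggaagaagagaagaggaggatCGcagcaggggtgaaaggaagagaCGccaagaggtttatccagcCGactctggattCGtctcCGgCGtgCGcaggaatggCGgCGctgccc
Dlx1: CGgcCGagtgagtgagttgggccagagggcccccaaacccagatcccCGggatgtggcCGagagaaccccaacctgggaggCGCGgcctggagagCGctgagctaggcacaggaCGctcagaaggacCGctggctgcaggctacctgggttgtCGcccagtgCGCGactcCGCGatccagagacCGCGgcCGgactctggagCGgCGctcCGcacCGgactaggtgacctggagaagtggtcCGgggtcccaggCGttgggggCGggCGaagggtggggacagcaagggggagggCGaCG
Lhx6: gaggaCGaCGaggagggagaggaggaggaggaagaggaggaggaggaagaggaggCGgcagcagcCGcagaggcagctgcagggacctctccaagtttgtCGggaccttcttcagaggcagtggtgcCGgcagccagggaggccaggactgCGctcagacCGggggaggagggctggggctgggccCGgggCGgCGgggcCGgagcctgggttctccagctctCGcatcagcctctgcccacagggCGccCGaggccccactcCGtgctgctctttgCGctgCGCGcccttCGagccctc
All 4 stretches are rich in CpG, with 25 in Irx2, 17 in Pax7, 27 in Dlx1 and 20 in Lhx6. The 50 member promoters had a median of 20 CpG and a GC content of 63.3%, against 16 CpG and 58.0% in the promoters that belong to genes in the count files, 13522 in number. The homeodomain core TAAT, searched on both strands, occurred in 24 of the 50 (48.0%), and in 60.6% of all 33469 promoters in the table. TAATCC, the Otx and Pitx class of site, which contains the core, occurred in 0 of 50 and in 7.17% of all. The POU octamer ATGCAAAT also occurred in 0 of 50, against 1.78% of all. All promoters in the table had a median of 7 CpG and a GC content of 51.7%. The motif shares are thus set against a background of lower GC than the members, and the part of GC content in them was not tested. These matches describe letters in a 300-base window and no site of binding.

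Reads per hippocampal library ranged from 16728486 to 51463555. Between 17.2% and 74.3% of them fell on ribosomal and 7SL RNA records, the largest share in VNS library 3, where 4301901 reads remained. Levels are given as CPM, reads relative to a library size adjusted by the TMM method, and 1 read was worth 0.0148 CPM in VNS library 1 and 0.203 CPM in VNS library 3. The label was checked against 12 hippocampal marker genes, 10 of them measured. Neurod2, a gene of telencephalic excitatory neurons, stood at 0.407, 1.20 and 66.2 CPM in controls 1 to 3 against 68.8 to 128 CPM under VNS. Neurod6, a gene of pyramidal neurons, stood at 0.652, 1.05 and 81.4 CPM in controls 1 to 3 against 58.9 CPM or more under VNS. The 10 markers summed to 247, 205 and 1017 CPM in the controls and to 826 to 1627 CPM in the VNS libraries, and 0 of the 8 tested were called. Not all were low in control libraries 1 and 2. Prox1, a gene of dentate granule cells that thalamic neurons also use, was at 89.8 CPM in control library 1 and 15.3 CPM in control library 2, Fibcd1, a gene of CA1 neurons, at 3.54 and 55.9 CPM, and Zbtb20, a hippocampal factor, at 94.1 and 95.6 CPM. Neurod2 and Neurod6 were thus nearly absent from these 2 libraries, which are named here by their labels. Fewer cells of a type and less RNA per cell cannot be told apart in such bulk samples.

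Of the 90 member records, 67 had at least 1 read in the hippocampal libraries, 53 had 10 or more and 23 had none. Control library 2 was the highest library for 19 of those 53 records, VNS library 3 for 13, control library 1 for 11, VNS library 4 for 6, and VNS library 2 and control library 3 for 2 each. VNS library 1, which had the most reads, was highest for none of them. Scaling without ribosomal and 7SL RNA records multiplied the CPM of every library by 1.596 to 1.613, and DESeq2 size factors by 0.993 to 1.005. VNS library 3 thus kept its place under both. Total counts gave it another place, as its TMM factor was 0.294 and 74.3% of its reads fell on ribosomal and 7SL RNA records. Scaled by total counts instead, its summed Dlx level went from 27.8, the highest of the 7 libraries, to 8.19, above control library 2 alone, and its summed Hox level went from 7.93 to 2.33 and was still the highest. Per kilobase of transcript, the mean CPM over the 7 libraries was 26.9 for Pou3f3, 15.5 for Pou3f1, 9.69 for Nkx6-2 and 8.20 for Pou6f1, and between 2.11 and 3.84 for Pou3f2, Lhx9, Dlx1, Pax6, Nkx2-2, Dlx5 and Lhx6.

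**Figure D1:**
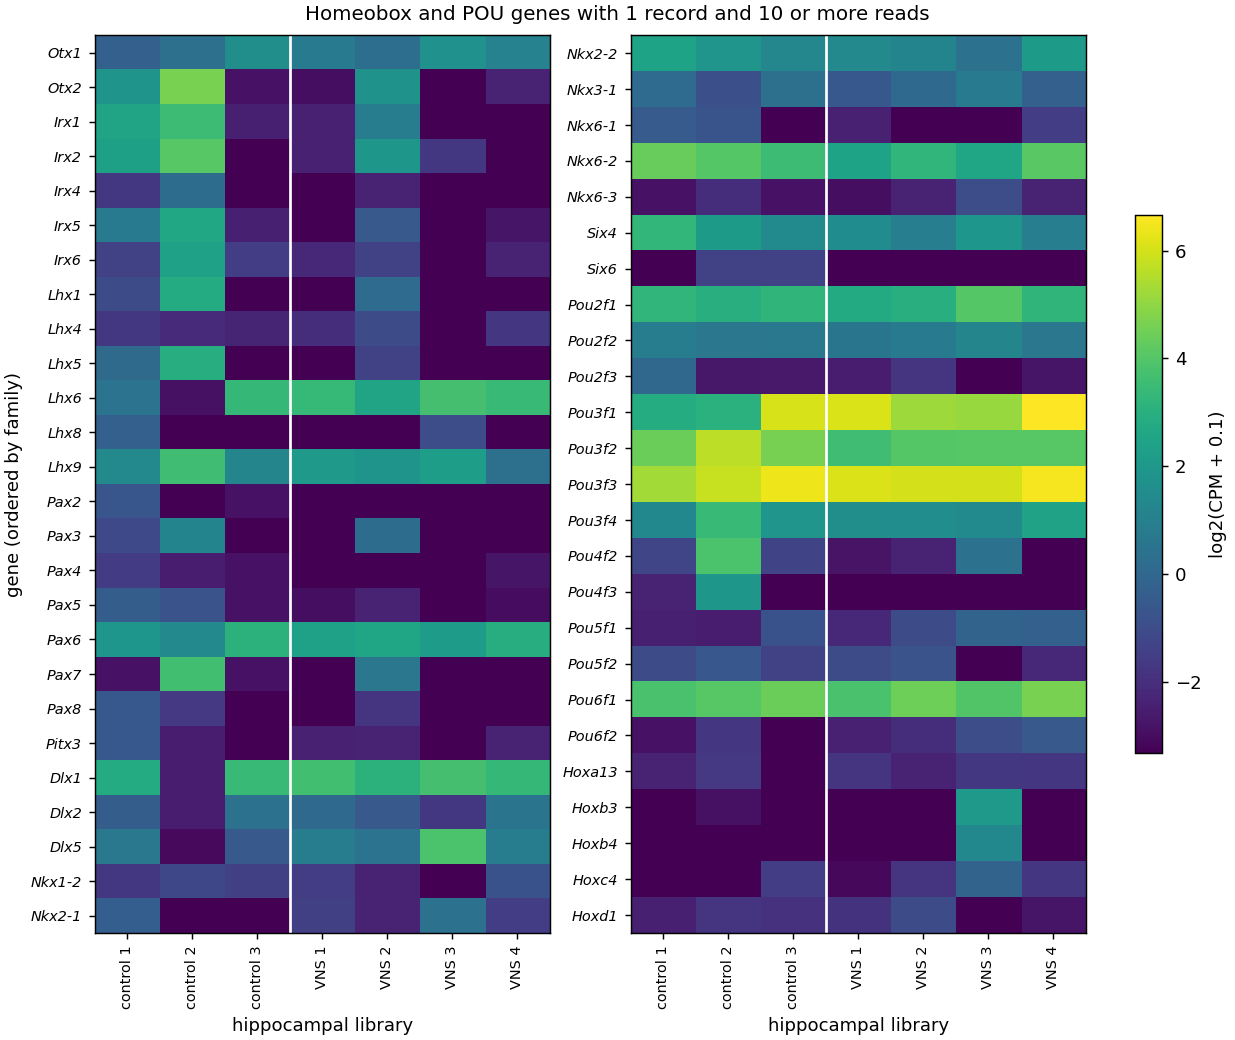
Levels of the genes with 10 or more reads in the hippocampal libraries, as log2(CPM + 0.1), with genes in rows ordered by family and the 7 libraries in columns; the white line separates control from VNS; genes with 2 records are left out. Control library 2 stands out in the rows of Otx2, the Irx genes, Lhx1, Lhx5, Pax7 and Pou4f2, and is dark in the rows of Dlx1 and Lhx6.

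Dlx1, Dlx2, Dlx5 and Lhx6 were nearly absent from control library 2 and were read in the other 6 libraries, although Dlx2 had 1 read in VNS library 3. The 2 further Dlx records, Dlx3 and Dlx4, had 4 reads each over all 7 libraries. Dlx1, a homeobox gene of newborn and mature inhibitory neurons, stood at 6.98, 0.0725 and 10.6 CPM in controls 1 to 3 against 12.3, 8.54, 13.2 and 9.96 CPM under VNS, where 4 values follow VNS libraries 1 to 4 in order throughout. Control library 2 gave 4 Dlx1 reads where control library 3 gave 510. Lhx6, a LIM homeobox gene required for the parvalbumin and somatostatin interneurons, stood at 1.30, 0.0362 and 9.86 CPM in controls 1 to 3 against 10.1, 5.58, 13.0 and 10.6 CPM under VNS. Control library 1 lay between control libraries 2 and 3 for both genes, and below all 4 VNS libraries. It was nearer control library 3 for Dlx1 than for Lhx6, so the ratio of the 2 genes was not the same in every library. Lhx8, which is used in basal forebrain cholinergic neurons, had 36 reads in control library 1, 2 in VNS library 3 and none elsewhere.

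Dlx2, the neighbour of Dlx1 (the pair spans chr3:64650292-64667332 in rn5, the build of the count files), ranged from 0.203 to 1.34 CPM in 6 libraries and was at 0.0725 CPM in control library 2. Dlx5, of the paired Dlx5 and Dlx6 locus, stood at 1.49, 0.0181 and 0.60 CPM in controls 1 to 3 against 1.78, 1.31, 14.2 and 1.71 CPM under VNS. The high value was that of VNS library 3 and rested on 70 reads, with an exact 95% Poisson interval of 54.6 to 88.4 reads, which covers counting error only.

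Genes that any GABA neuron uses were not low in control library 2. Gad1, which encodes an enzyme of GABA synthesis, stood at 276, 392 and 155 CPM in controls 1 to 3 against 172 to 207 CPM under VNS, highest in control library 2. The GABA transporter gene Slc32a1 was also highest there, at 172 CPM, against 48.8 to 113 CPM in the other libraries. The 10 interneuron markers summed to 489 to 916 CPM in the controls and to 542 to 571 CPM in the VNS libraries. Some of them were lowest in control library 2, with Cck at 22.2 CPM there against 82.4 to 159 CPM elsewhere. Npy was at 3.35 CPM there against 5.36 to 21.1 CPM elsewhere. Gad2 was highest there, and Sst, Pvalb, Vip, Lamp5 and Htr3a lay within the range of the other libraries. Of the 10 interneuron markers, all tested, 0 were called at an adjusted p under 0.05.

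**Figure D2:**
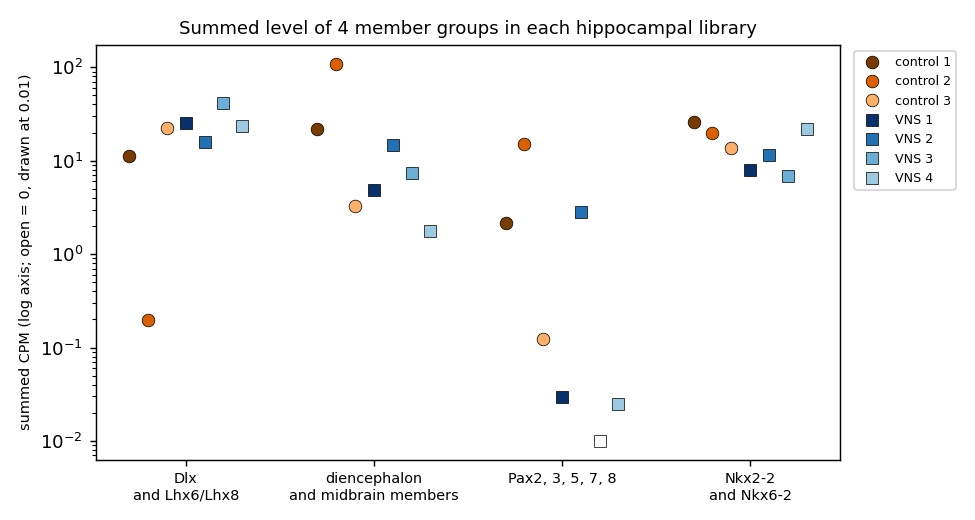
Summed CPM of 4 groups of member genes, on a log axis, with 1 point for each hippocampal library (circles control, squares VNS; an open symbol stands for 0). Control library 2 is lowest for the Dlx and Lhx6/Lhx8 group at 0.199 CPM and highest for the diencephalon and midbrain group at 109.9 CPM.

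The members used in the diencephalon and midbrain showed the opposite order. The 14 measured genes of this group summed to 21.9, 109.9 and 3.31 CPM in control libraries 1, 2 and 3 and to 4.84, 14.9, 7.32 and 1.78 CPM in the VNS libraries. Control library 2 was highest, control library 1 and VNS library 2 came next, and the other 4 were low. The 2 groups overlapped. Lists of markers for neighbouring regions were read beside these genes. The 8 measured thalamus markers summed to 1896, 549 and 108 CPM in controls 1 to 3 against 93.3 to 231 CPM under VNS, and the 12 brainstem markers to 162, 97.3 and 11.7 CPM against 8.21 to 24.0 CPM. Control library 1 had the highest sum on both lists, but its brainstem sum held 73.7 CPM of Slc6a3 and 47.6 CPM of Th. Other brainstem markers were highest in control library 2, with Tal1 at 5.52 and 32.4 CPM, Gata3 at 1.63 and 11.3 CPM and Glra1 at 18.8 and 37.1 CPM in control libraries 1 and 2. None of the 8 tested genes on either list was called, and the part of such tissue in the homeobox values was not tested.

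Otx2, which marks the forebrain and midbrain in the embryo and persists in adult thalamus, midbrain and choroid plexus, stood at 3.54, 25.3 and 0.0414 CPM in controls 1 to 3 against 0.0296, 3.30, 0 and 0.0991 CPM under VNS. The reads were 174, 1394 and 2 in the controls and 2, 68, 0 and 4 in the VNS libraries. Control libraries 1 and 2 and VNS library 2 therefore carried Otx2 and the other 4 were at or near the floor of 3 reads. Ttr, the defining transcript of choroid plexus, stood at 20.2, 0.435 and 0.787 CPM in controls 1 to 3 against 0.347 to 3.08 CPM under VNS, so the library with the most Otx2 was low in Ttr. Of the other 9 choroid plexus markers, Enpp2, which oligodendrocytes also express, gave 266.5, 215 and 122 CPM in controls 1 to 3, and the rest were at 4.28 CPM or less in every hippocampal library. Some of these low markers were nevertheless at their lowest among the controls in control library 3, with Kl at 4.28, 2.65 and 0.249 CPM, Clic6 at 1.73, 1.503 and 0.124 CPM and Slc4a5 at 2.30, 1.32 and 0.538 CPM. The 10 markers summed to 300.1, 225 and 128 CPM in the controls and to 75.6 to 148 CPM in the VNS libraries, 0 of the 10 were called, and the part of choroid plexus in the Otx2 values was not tested.

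The Irx genes sit in 2 clusters that are used in the thalamus, midbrain and hindbrain. Irx1 stood at 5.64, 11.4 and 0.0828 CPM in controls 1 to 3 against 0.0889, 1.75, 0 and 0 CPM under VNS. Irx2 stood at 5.05, 16.7 and 0 CPM in controls 1 to 3 against 0.0889, 3.79, 0.203 and 0 CPM under VNS. Both genes were thus highest in the same 3 libraries as Otx2. Together, Irx4, Irx2 and Irx1 (chr1:34059614-35325724, rn5) had 535, 1609 and 4 reads in the controls and 12, 116, 1 and 0 in the VNS libraries. Irx6 and Irx5 (chr19:26813494-27494654) had 91, 623 and 16 reads in the controls and 8, 18, 0 and 6 in the VNS libraries. Irx6 was the more restricted member, at 5.14 CPM in control library 2 and 0.291 CPM or less in the other 6.

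Among the LIM homeobox genes, Lhx5, a gene of the diencephalon, stood at 0.998, 7.32 and 0 CPM in controls 1 to 3 against 0, 0.291, 0 and 0 CPM under VNS. Lhx9, which is used in the thalamus and midbrain, stood at 2.48, 12.2 and 2.26 CPM in controls 1 to 3 against 4.12, 3.54, 4.68 and 1.19 CPM under VNS. Lhx9 was thus read in every library, and control library 2 was the highest. Lhx1, close kin of Lhx5, had 384 reads in control library 2, 19 in control library 1, 21 in VNS library 2 and none in the other 4. It was chosen after its values were seen, as were Dlx2, Dlx3, Dlx4, Hoxa13, Irx4, Irx5, Lhx8, Pax2, Pax5, Pax8, Pou4f2 and Pou4f3.

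Pou4f2 and Pou4f3, POU factors of retinal ganglion cells, midbrain tectum and inner ear, were close to exclusive to control library 2. Pou4f2 had 781 reads there, 14.2 CPM, and 16 reads or fewer in every other library. Pou4f3 had 208 reads there, 5 in control library 1 and none elsewhere. Pitx3, which midbrain dopamine neurons require, was at 0.570 CPM in control library 1, from 28 reads, and at 0 to 0.0991 CPM in the other 6. Slc6a3, the dopamine transporter gene of those neurons, was at 73.7 CPM in control library 1 and 0.833 CPM or less elsewhere.

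The 5 Pax genes of the midbrain and hindbrain did not share 1 order of control libraries 1 and 2. Pax7, a gene of the dorsal midbrain, stood at 0.0407, 12.3 and 0.0414 CPM in controls 1 to 3 against 0, 1.46, 0 and 0 CPM under VNS. Control library 1 gave 2 Pax7 reads although it held 174 of Otx2, and VNS library 2 gave 30 beside 68 of Otx2. Pax3, a gene of the dorsal neural tube, stood at 0.367, 2.19 and 0 CPM in controls 1 to 3 against 0, 1.07, 0 and 0 CPM under VNS. Pax2, in contrast, had 26 reads in control library 1, 2 in control library 3 and none elsewhere. Pax8 had 28 reads in control library 1 and 12 in control library 2, and Pax5 had 33 and 27 reads, with exact 95% Poisson intervals that overlap (22.7 to 46.3 and 17.8 to 39.3). Six6, a gene of the hypothalamus and eye, had 16 reads in control library 2, 14 in control library 3 and none in the other 5.

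**Figure D3:**
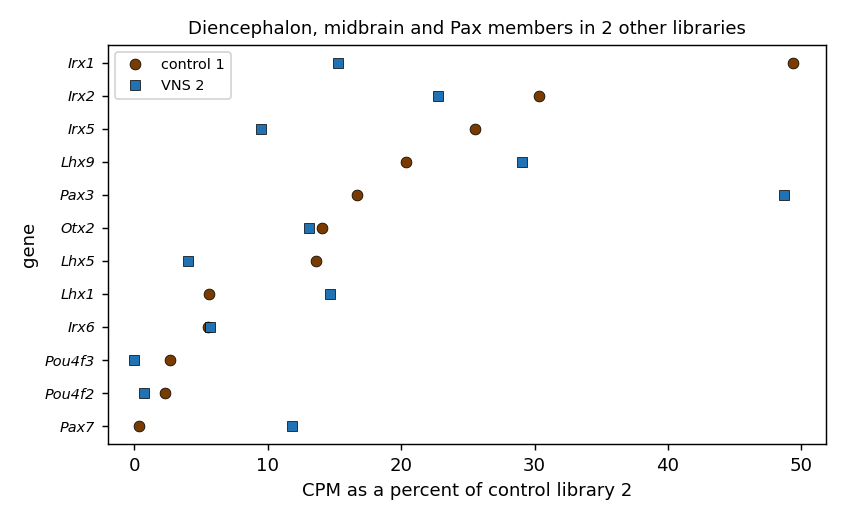
Level of each diencephalon, midbrain and Pax member in control library 1 (circles) and VNS library 2 (squares) as a percent of its CPM in control library 2, for the 12 genes with at least 50 reads there, a choice that takes genes high in control library 2. The order of the genes differs between the 2 libraries, as Irx1 is at 49.3% in control library 1 and 15.3% in VNS library 2, and Pax7 at 0.330% and 11.8%.

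Levels relative to control library 2 were compared for the 12 genes of these groups with at least 50 reads there, as a description. This choice takes genes that are high in control library 2, so it says nothing of the other members of the groups. Pax2, Pax5, Pax8, Pitx3 and Nkx2-1, which had fewer reads there, all had a higher CPM in control library 1, for Pax5 within counting error, with Pax8 at 0.570 and 0.217 CPM in control libraries 1 and 2. The 12 genes did not share 1 proportion. Otx2 was at 14.0% and 13.1% in control library 1 and VNS library 2, Irx1 at 49.3% and 15.3%, Pax3 at 16.7% and 48.7%, and Pax7 at 0.330% and 11.8%. In the 4 low libraries Lhx9 stood highest of the 12, at 9.75% to 38.4%. Pou4f2 was at 8.62% in VNS library 3, above its 2.30% in control library 1. Irx6 was at 4.83% in control library 3, near its 5.54% in control library 1.

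Other homeobox genes that mark brain regions but do not meet the symbol rule were taken from a list of 37, of which 30 were measured. Barhl1, a gene of the mammillary region, midbrain and cerebellum, stood at 0.631, 11.5 and 0.0414 CPM in controls 1 to 3 against 0.485 CPM or less under VNS. Uncx, a gene of the caudal diencephalon and midbrain, stood at 1.06, 3.84 and 0.0828 CPM in controls 1 to 3 against 0.291 CPM or less under VNS. Both were highest in control library 2 and next in control library 1, as Irx1 and Irx2 were. Gbx2, a gene of the thalamus and anterior hindbrain, was higher in control library 1, at 5.70 CPM, than in control library 2, at 1.70 CPM, and was at 1.99 CPM in VNS library 2. Of the list, 14 were tested, 0 were called and 3 had an unadjusted p under 0.05, all lower in VNS (Barhl1, Barhl2 and Uncx), where 12.1% of all records tested had such a p. The genes named from this list were chosen after their values were seen.

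Hox genes were close to absent from the hippocampal libraries. All 31 Hox records together had between 9 and 39 reads per library, and 19 of the 31 had none in any library. All 9 Hoxa records are annotated on more than 1 contig in rn5, where reads could be left unassigned, so their zeros say nothing about expression. Control library 2, with 1394 reads of Otx2, had 27 Hox reads, of which 12 were of Hoxa13 and 10 of Hoxd1. Hoxd1 was at 0 to 0.388 CPM over the 7 libraries and Hoxc4 at 0 to 0.813 CPM, without separation of the groups.

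**Figure D4:**
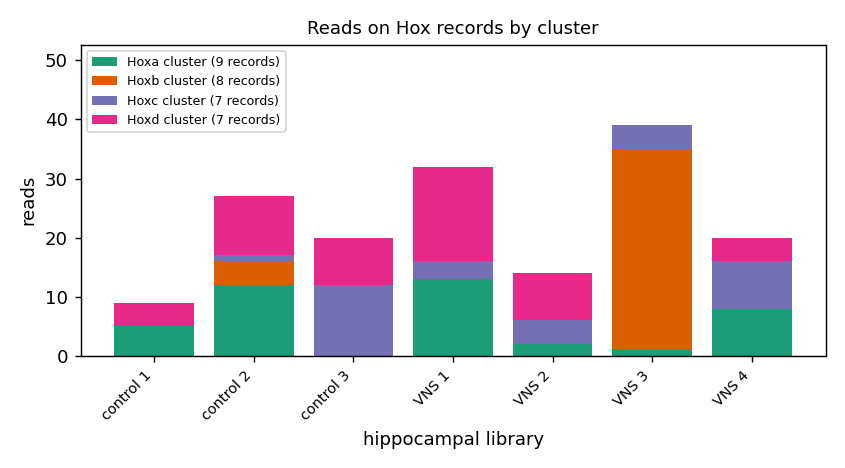
Reads on the 31 Hox records in each hippocampal library, stacked by cluster. The Hoxb cluster gives 34 of the 39 Hox reads in VNS library 3 and 4 of 27 in control library 2.

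The Hox reads of VNS library 3 were of another kind. Hoxb3, a gene of the caudal hindbrain and spinal cord, had 20 reads there and 2 in control library 2, with none elsewhere. Hoxb4, its neighbour, had 12 reads in VNS library 3 and none in the other 6. The exact 95% Poisson intervals were 12.2 to 30.9 and 6.20 to 21.0 reads. In a library without Hoxb4 reads, the limit that a count of 0 allows, 3 reads, was 0.0444 to 0.146 CPM, against 2.44 CPM measured in VNS library 3. Mates of a pair were counted separately, so the sequenced fragments may be fewer than these reads. Lbx1, a gene of dorsal spinal cord and hindbrain neurons, was at 1.42 CPM in VNS library 3 and 0.0207 CPM or less in the other 6. With 1 read worth 0.203 CPM in VNS library 3, this Lbx1 level rested on few reads. The part of the ribosomal share of this library in these values was not tested.

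The Pou3f genes, transcribed in most neural tissue, differed in which libraries were high. Pou3f1, a factor of forebrain projection neurons and Schwann cells, stood at 7.11, 8.17 and 66.5 CPM in controls 1 to 3 against 69.3, 36.5, 35.0 and 101.3 CPM under VNS, low in the 2 control libraries that were low in Neurod6. Pou3f3, a neural factor also known as Brn1, varied less, at 38.9, 56.9 and 85.0 CPM in controls 1 to 3 against 70.7, 64.1, 64.8 and 92.4 CPM under VNS. Pou3f2, its relative Brn2, stood at 21.3, 50.8 and 24.5 CPM in controls 1 to 3 against 12.0, 16.3, 16.9 and 16.9 CPM under VNS. For Pou3f2 the groups did not overlap, and every VNS library lay below every control library. Pou3f2 was the 1 such member of the 31 tested (3.23%), where 9.29% of all 12728 records tested had groups that did not overlap.

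A further 3 members were read in every library. Pou6f1, a POU factor of adult neurons, stood at 13.7, 16.7 and 21.3 CPM in controls 1 to 3 against 13.9 to 25.2 CPM under VNS. Pax6, a factor of neural progenitors and some interneurons, stood at 3.75, 2.52 and 8.39 CPM in controls 1 to 3 against 4.47 to 7.46 CPM under VNS. Otx1, a gene of forebrain and deep cortical neurons, stood at 0.733, 1.20 and 2.92 CPM in controls 1 to 3 against 1.12 to 3.25 CPM under VNS. For all 3 genes control library 3 lay above the other controls, and the groups overlapped. Six4, a gene of sensory placodes and muscle that is also read in brain, stood at 9.65, 4.22 and 2.61 CPM in controls 1 to 3 against 2.83, 1.85, 3.66 and 1.83 CPM under VNS.

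Some members read at 10 or more reads were not among those to be named and were chosen after their values were seen. Pou3f4, a factor of the hypothalamus and inner ear, reached 10.8 CPM in control library 2, against 2.44 to 5.33 CPM elsewhere. Pou2f1, the widely expressed octamer-binding factor Oct1, ranged from 6.71 to 16.1 CPM and was highest in VNS library 3. Nkx2-1, a factor of the hypothalamus and ventral telencephalon, had 34 reads in control library 1, none in control libraries 2 and 3, and 18, 2, 6 and 10 in the VNS libraries. A further 14 member records had between 1 and 9 reads over all 7 libraries, and 19 of the 23 without a read were Hox records.

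The Nkx genes of the oligodendrocyte lineage were read in all libraries. Nkx6-2, a factor of mature oligodendrocytes, stood at 20.3, 16.3 and 11.4 CPM in controls 1 to 3 against 5.48, 9.47, 5.69 and 17.3 CPM under VNS. Nkx2-2, a factor of their precursors, stood at 5.38, 3.64 and 2.36 CPM in controls 1 to 3 against 2.503, 2.18, 1.22 and 4.26 CPM under VNS. For both genes control library 1 was highest and VNS library 4 lay within the control range. The 10 oligodendrocyte markers summed to 7941, 6512 and 4442 CPM in the controls and to 2625, 3739, 2120 and 5083 CPM in the VNS libraries, and 0 of the 10 were called. The part of oligodendrocyte content in the 2 Nkx genes was not tested.

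VNS was then compared with control across all records in the hippocampal libraries with edgeR's quasi-likelihood test and Benjamini-Hochberg adjustment. No member passed an adjusted p under 0.05, as 0 of 31 tested members and 0% of 12728 records were called. At an unadjusted p under 0.05 there were 6 members of 31 (19.4%), all lower in VNS, beside 12.1% of all records. With DESeq2 17 records (0.134%) were called, with no member among them. The remaining 59 member records were too low to be tested, 22 of them with 10 or more reads, Pax7 among these.

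The log2 fold change of Pou3f2 was -1.06 (SE 0.30, adjusted p = 0.402), lower in 4 of 4 VNS libraries than in any control. Without control library 2 the change was -0.57. The value was -3.71 (SE 1.22) for Irx6, -5.52 (SE 1.98) for Lhx5 and -1.16 (SE 0.47) for Six4, each with an adjusted p of 0.402. Each was smaller in size without 1 particular control library, which was control library 2 for Irx6 and Lhx5 and control library 1 for Six4. Irx6 and Lhx5 were larger in size without control library 1 (-4.22 and -5.94) and without control library 3 (-4.23 and -6.17). Lhx5 had 49 reads in control library 1 beside 404 in control library 2, so its change did not rest on control library 2 alone. Without control library 2 the value of Irx6 was -0.89 and that of Lhx5 was -2.95, and without control library 1 that of Six4 was -0.47. The other 2 members with an unadjusted p under 0.05 were Irx5 and Pou4f2. Among the changes that missed even that threshold, Dlx5 was at 2.63 (SE 1.27, adjusted p = 0.407) and Otx2 at -3.45 (SE 1.80, adjusted p = 0.420). Without VNS library 3 Dlx5 was at 1.20, and without control library 2 Otx2 was at -1.01.

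**Figure D5:**
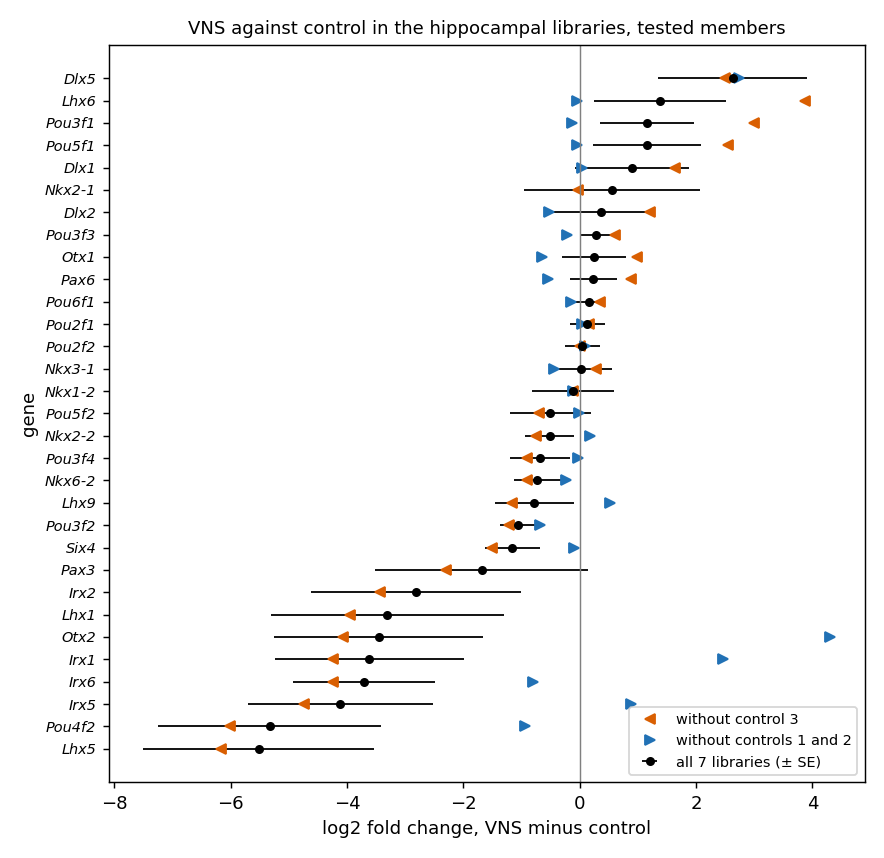
Log2 fold change of VNS against control for the 31 tested members in the hippocampal libraries (black, ± SE), without control library 3 (orange), and without control libraries 1 and 2 (blue, drawn only for genes with a read in control library 3). No member was called with all 7 libraries, and leaving out control libraries 1 and 2 moves Otx2 and Irx1 from below to above 0. Control library 3, then the only control, had 2 reads of Otx2 and 4 of Irx1.

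The comparison turned on which control libraries were kept. Without control library 3, 10.6% of 12931 records were called, and so were 8 of 39 tested members (20.5%). Higher in VNS were Lhx6 (log2 fold change 3.87, adjusted p = 0.0395) and Pou3f1 (2.998, adjusted p = 0.00876), and 6 were lower, among them Irx5, Irx6, Lhx5, Pax5 and Pou3f2. This fit set the VNS libraries against the pair of control libraries that were low in Neurod6. The filter passed 39 members rather than 31, and a gene read only in that pair could then enter. Pax5, with 33 and 27 reads in that pair and 2 or fewer in every other library, was not tested with all 7 libraries. The 20.5% is therefore not read against the 10.6%. Without control libraries 1 and 2, 0 of 13111 records and 0 of 37 members were called, the 1 remaining control being taken to vary like the VNS libraries. In that fit Otx2, with 2 reads in control library 3, was at 4.30 and Lhx6 at -0.04 on the log2 scale. Scaling by total counts, which the ribosomal share enters, put the median log2 fold change of all records at -0.589 and called 1.52% of records, 4 higher and 190 lower. It called 8 of 31 members, namely Irx1, Irx2, Irx5, Irx6, Lhx1, Lhx5, Otx2 and Pou4f2, all lower in VNS by more than that median shift, with Otx2 at -4.04 and Irx2 at -3.41.

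Genes whose proteins work with these factors were examined in 3 lists. The TALE homeobox genes, whose products bind DNA with Hox proteins, had 8 of 9 genes tested and 0 called. Pbx3 stood at 33.6, 37.6 and 10.0 CPM in controls 1 to 3 against 4.73 to 11.4 CPM under VNS, and Meis1 at 8.80, 11.3 and 3.56 CPM against 1.75 to 3.86 CPM. In both, control libraries 1 and 2 were high and control library 3 lay within the VNS range. The LIM cofactors, which bind Lhx proteins, had 8 tested and 0 called, with a median log2 fold change of 0.30. The Eya, Dach and Sobp cofactors of Six4 and its kin had 4 tested and 0 called, with a median of -0.35, where the median of all records was -0.01.

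In the cortex libraries 36 member records had a read, from totals of 329130 to 435296 reads per library. Only Dlx1, Pou3f2 and Pou3f3 passed the filter. Dlx1 was at 648 ± 120 CPM in control and 625 ± 145 CPM in VNS (SD, n = 4 each), Pou3f2 at 527 ± 145 and 457 ± 97.1 CPM, and Pou3f3 at 86.9 ± 35.6 and 80.6 ± 20.7 CPM. The groups overlapped for each, and 0 of the 3 were called, beside 0.0257% of 3884 records. Dlx1 alone took 47.0% of the cortex member reads. Per the file headers, counting used strand option 1 in cortex and no strand option in hippocampus. Which strand the cortex counts hold was not tested, so they are not read as levels or set against the hippocampal values.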

How the data were processed

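Read counts came from 15 rat libraries, 7 hippocampal and 8 cortical. Per the submitters' processing notes, the tools were FastQC (0.10.1), Trimmomatic, SAMtools (0.1.19), Bowtie2, featureCounts of Subread, and edgeR, on build rn5. The authors deposited raw counts for each RefSeq record, from featureCounts 1.4.6-p2 per the file headers, with mates of a pair counted separately. A read overlapping several records is left unassigned, so genes with several records are undercounted. Hippocampal counting used no strand option per the same headers, and of the members Pax9 alone overlapped a record on the opposite strand. Gene names were looked up in RefSeq's GRCr8 table, and 939 records had none.

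The counts were tested in edgeR 4.0.16 under R 4.3.3, within each tissue and two-sided, by glmQLFit and glmQLFTest after filterByExpr (minimum count 10, minimum total 15) and TMM scaling. Adjustment by Benjamini-Hochberg ran over all records tested, at 0.05. DESeq2 1.42.0, limma-voom (limma 3.58.1), other scalings and filters, and leaving out each library were alternatives. On simulated hippocampal counts of 12629 records, 13.1% of 2-fold and 83.3% of 4-fold changes were called, with 8 of 12434 unchanged records. These changes were placed in records drawn at random from those tested. The shares therefore do not describe members with a wide spread, such as Otx2 (SE 1.80). The members, gene lists and alternatives were chosen with earlier results of these data known. Members were named by rule: the 4 Hox and 4 Pou records and, in each other family, the 2 records with the highest mean CPM, plus the smallest p of each family. Some members are not reported here by name.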

Additional observations from a re-analysis of the deposited data

Results flagged for a closer look

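Dixon's test was applied to the 4 VNS libraries of the hippocampus for each of 27 named members and set apart 1 library in 9 of them. Chance does so in about 1 of 20 groups of continuous values, but the 9 are not independent and are not read against that share. Hoxb3 and Hoxb4 were named through their level in VNS library 3, and 5 of the genes repeat VNS library 2. For Hoxb3, Hoxb4, Pax3 and Pax7 the other VNS libraries had no read. Any reads in the remaining library then give the test a ratio of 1.0, so these outcomes were fixed in advance. VNS library 3 lay above the other 3 for Dlx5 at 14.2 CPM, Hoxb3 at 4.07 CPM and Hoxb4 at 2.44 CPM. VNS library 2 lay above the other 3 for Irx1 at 1.75 CPM, Irx2 at 3.79 CPM, Otx2 at 3.30 CPM, Pax3 at 1.07 CPM and Pax7 at 1.46 CPM. VNS library 1 lay below the other 3 for Pou3f2 at 12.0 CPM. The controls, a group of 3, were not tested this way. The values of VNS library 3 are on the TMM scale, which raises them over total counts.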

How the results depend on the processing

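The count of records called in the hippocampal libraries was 0 with 2 other scalings, 4 other filters or record sets, and limma-voom, but 17 with DESeq2 and 194 with total counts, which also called 8 members. Leaving out 1 library gave 0 to 1377 records and 0 to 8 members, the upper end without control library 3. In cortex the count was 1, and 5 without a filter, 0 with limma-voom and 0 to 4 with 1 library left out, 4 being without control library 1, and 0 members were called in each of these. Without hippocampal control libraries 1 and 2 the log2 fold change turned sign for 12 of the 18 named members with a value, namely Irx1 (2.46), Irx2 (8.24), Lhx6 (-0.04), Lhx9 (0.52), Nkx2-2 (0.17), Otx1 (-0.64), Otx2 (4.30), Pax3 (6.30), Pax6 (-0.55), Pou3f1 (-0.13), Pou3f3 (-0.23) and Pou6f1 (-0.16). The values of Irx2 and Pax3 are set against a control at 0 reads and are no bound. Those of Otx2 and Irx1 are set against 2 and 4 control reads, and VNS library 2 gave 68 and 36 of their VNS reads. With total counts Otx1 (-0.42), Pax6 (-0.26), Pou3f3 (-0.25) and Pou6f1 (-0.39) turned sign. With 1 library left out, Lhx9 ran from -1.17 to 0.47, Otx1 from -0.11 to 0.98, Pax3 from -2.29 to 0.54, Pax6 from -0.08 to 0.88 and Pou6f1 from -0.01 to 0.34. The cause of these changes was not tested. No paired analysis was possible because the labels give no replicate numbers that pair libraries. In VNS library 3 the floor of 3 reads is 0.610 CPM, so lower levels there rest on fewer than 3 reads.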

Other observations

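Genes whose levels followed those of Otx2 most closely over the 7 hippocampal libraries, by Pearson's r of log2 CPM, were chosen after the values were seen. Ebf3, a factor of neuronal differentiation, stood at 5.78, 44.6 and 0.124 CPM in controls 1 to 3 against 0.0592, 2.72, 0 and 0 CPM under VNS (r = 0.985). Kcna5, a potassium channel gene, stood at 2.91, 4.40 and 1.39 CPM in controls 1 to 3 against 1.53, 3.25, 1.22 and 1.83 CPM under VNS (r = 0.983), over a narrower range. The points share depth and scaling, so r is a description. For the summed Hox level, Mad2l1bp, Casc3, Zfp39, Rbm43 and Dbh shared the order of the 7 libraries exactly (Spearman's rho 1.0), and with 9 to 39 reads behind each sum this order carries little information.

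Isl1, a LIM homeobox gene of cholinergic and hypothalamic neurons that does not meet the symbol rule, was at 8.14 CPM in control library 1 and 0.0592 CPM or less in the other 6.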
